A study of Mus musculus with 40 samples.

Results

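miR-340 and the cluster of miR-191 and miR-425 were described as the 6 mature miRNAs of 3 mouse hairpins (mmu-miR-340-5p, mmu-miR-340-3p, mmu-miR-425-5p, mmu-miR-425-3p, mmu-miR-191-5p and mmu-miR-191-3p, written without the species prefix from here on), out of 1978 mature miRNAs in the counts. Each was taken by its name, from the precursor entry with the highest total count, and each had 1 such entry, so that the total count is the measured value the selection used. All 6 members passed the low-count filter over the 4 groups of mice, as did 699 of the 1978 miRNAs. The members were chosen with earlier results of these data known, so that the p-values below, all from fits across the whole table, describe the members and are not independent evidence for them.

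Small RNA was sequenced from the CA1 region of the hippocampus, 1 library per mouse, in wild-type control mice and in CaMKIIδC transgenic (TG) mice. TG mice overexpress the δC form of calcium/calmodulin-dependent protein kinase II and are used by the study as a model of heart failure. Controls were littermates on the same C57Bl/6J background. The younger groups, 3 months of age, held 9 TG mice and 5 wild-type control mice. The older groups, 6 months of age, held 11 TG mice and 15 wild-type control mice, and the study asked how hippocampal miRNAs differ between the ages and the genotypes. Grouping follows the titles of the samples, and for wild-type control mice 1 and 2 at 3 months, another label field names the other genotype. For small RNA, the paper's figure legends count fewer TG mice at 3 months and more at 6 months than these titles do.

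A miRNA gene is transcribed as a longer RNA that holds a hairpin. The hairpin is cut into a duplex of a 5p and a 3p arm, and usually one arm is kept in an Argonaute protein, where bases 2 to 8, the seed, pair with target mRNAs, while the other arm is degraded. Both arms of a hairpin, and all hairpins of a cluster that share a primary transcript, therefore start from the same RNA, although each mature strand is kept or lost on its own. miR-191-5p and miR-425-5p come from neighbouring hairpins and are often used as reference miRNAs in small RNA assays. miR-340 is a brain-expressed miRNA whose hairpin lies in a gene for a ubiquitin ligase.

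The mature sequences are shown because all comparisons below are between these 6 strands. They are from RefSeq on GRCm38.p6, which held all 6, and are printed 5′ to 3′ with the seed in capitals.
miR-340-5p: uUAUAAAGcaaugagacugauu
miR-340-3p: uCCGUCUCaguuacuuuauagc
miR-425-5p: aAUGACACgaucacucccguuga
miR-425-3p: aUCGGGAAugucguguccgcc
miR-191-5p: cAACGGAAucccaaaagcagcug
miR-191-3p: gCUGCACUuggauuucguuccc
The 6 seeds were all different. Among the 1679 mature sequences searched, 5 of the members shared their seed with no other miRNA. miR-425-5p shared its seed with miR-489-3p, which had a mean of 0.00817 CPM (TMM-normalized counts scaled to a common library size) over the 40 mice and did not pass the filter. GC content was lowest in miR-340-5p at 27.3% of its 22 bases and highest in miR-425-3p at 61.9% of its 21 bases. It was 40.9% in miR-340-3p, 47.8% in miR-425-5p, 52.2% in miR-191-5p and 54.5% in miR-191-3p.

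The hairpins are shown because the results turn on how their arms were balanced. They are printed 5′ to 3′ with the arms that are counted as 5p and 3p in capitals.
Mir340: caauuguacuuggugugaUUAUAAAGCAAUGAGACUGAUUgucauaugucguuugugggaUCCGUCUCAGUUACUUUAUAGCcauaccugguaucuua
Mir425: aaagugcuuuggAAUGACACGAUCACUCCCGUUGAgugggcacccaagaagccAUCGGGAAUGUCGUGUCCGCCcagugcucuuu
Mir191: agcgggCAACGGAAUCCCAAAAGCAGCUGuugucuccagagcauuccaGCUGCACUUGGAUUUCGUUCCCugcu
Mir340 (ENSMUSG00000065417) lies at chr11:50069702-50069799 on the plus strand of GRCm38, in an intron of 2 of the 3 annotated transcripts of Rnf130, a protein-coding gene on the same strand. Mir191 (ENSMUSG00000105497) at chr9:108568319-108568392 and Mir425 (ENSMUSG00000065579) at chr9:108568777-108568861 are on the plus strand with 384 bases between them. Both lie within the long noncoding RNA gene 4833445I07Rik of the same strand. Of its 2 transcripts, 1 overlaps Mir425 with an exon. Mir191 is overlapped by an exon of 1 transcript and is intronic in the other. An annotated miRNA gene on the opposite strand, Gm24083, also covers Mir191.

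Library totals ranged from 2656368 to 36547011 counts and differed with age. The median was 22455957 counts in wild-type control and 29499287 in TG mice at 3 months, against 14908612 and 13894826 at 6 months. The floor, set at 3 counts, was 0.0956 to 2.32 CPM depending on the library, and the lowest count of a member in any library was 7. At 3 months, the libraries of TG mouse 8 and of wild-type control mice 1 and 5 stood apart from the other 11. Over the 45 other miRNAs called higher at 6 months in TG mice, their median difference to the mean of 6-month-old TG mice was -0.08 on the log2 scale in each, against -1.10 to -0.70 in the other 11 libraries. These 45 were picked for being lower in TG mice at 3 months, so low values in those mice follow in part from the choice. The totals of the 3 libraries that stood apart were 12006095 to 14052092 counts. TG mouse 3, at 13377760 counts, was within that range and did not stand apart (-0.83). A red blood cell miRNA that is itself among the 45, miR-451a, was at 258 to 356 CPM in the 3 libraries against 146 to 246 CPM in the others. The labels place these mice at 3 months, and whether their age labels are right was not tested, which bears on every 3-month value and age difference below. The 3 libraries were kept, and the age differences that rest on them are also given without them.
Some markers of cell types were called with age in TG mice, where 15.7% of all miRNAs were called and 7.47% were called higher. By list, 2 of 6 neuron markers, 1 of 4 vessel markers and 2 of 4 choroid plexus markers were called higher at 6 months, and 2 of 2 oligodendrocyte, 1 of 4 leukocyte and 1 of 3 tested heart and muscle markers were called lower. Of 6 red blood cell miRNAs, 1 was called higher (miR-451a) and 2 lower (miR-486a-3p and miR-144-3p). In wild-type control mice edgeR with group as the only term called none of these markers. No marker was at 0 in all libraries. The summed neuron markers ranged from 193334 to 340518 CPM in TG mice at 3 months and from 220654 to 369601 CPM at 6 months. Summed oligodendrocyte markers ranged from 1210 to 2445 and from 803 to 1330 CPM, vessel markers from 9975 to 16975 and from 13368 to 19299 CPM, choroid plexus markers from 381 to 872 and from 725 to 1070 CPM, leukocyte markers from 99.4 to 308 and from 65.0 to 207 CPM, heart and muscle markers from 639 to 1750 and from 383 to 713 CPM, and the 6 red blood cell miRNAs from 756 to 2229 and from 1010 to 1683 CPM. The part of these cells in the results below was not tested, and in a tissue sample fewer cells of a type and less RNA per cell cannot be told apart.

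miR-191-5p was the highest member, with a mean of 2041 CPM over the 40 mice, the rank of 54 among 699 miRNAs. It was followed by miR-340-5p at 800.07 CPM (rank 84), miR-340-3p at 244 CPM (rank 140) and miR-425-5p at 123 CPM (rank 176). The remaining arms were low, with miR-425-3p at 13.7 CPM (rank 338) and miR-191-3p at 8.30 CPM (rank 385). These are levels after TMM normalization, and adapter ligation copies miRNAs with unequal efficiency, so the order of different miRNAs is a description of the libraries. The ranges of miR-425-3p and miR-191-3p overlapped in 3 of the 4 groups and were apart in wild-type control mice at 3 months, and miR-191-5p was above miR-340-5p on average by more than the spread of each in every group.

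**Figure D1:**
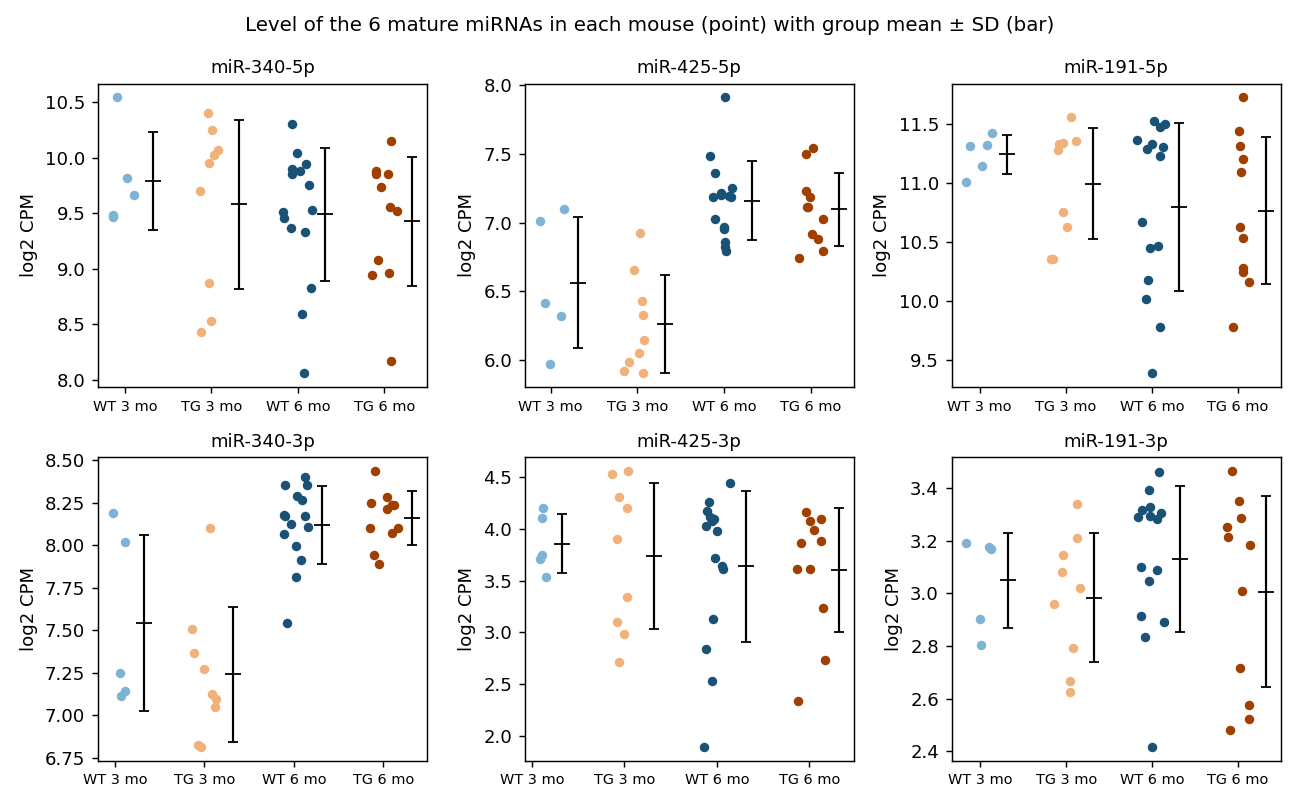
Level of each of the 6 mature miRNAs (y axis, log2 CPM) in the 40 mice by genotype and age (x axis, WT is wild-type control). Each point is 1 mouse and the bars give the group mean ± SD. For miR-340-3p and miR-425-5p, 11 of the 14 mice at 3 months lie below all 26 mice at 6 months, and the other 3 lie among them.

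In TG mice, 2 of the 6 members differed between 3 and 6 months, one arm of mir-340 and one arm of mir-425, and both were higher at 6 months. The opposite arms of the same hairpins and both arms of mir-191 were not called. A miRNA was called where its adjusted p was under 0.05 and its log2FC was above 0.26 in size. In this comparison 99 of 629 miRNAs (15.7%) were called, 47 of them (7.47%) higher at 6 months, and the 2 members are read against these shares as a description. The median log2FC of all 629 miRNAs was -0.09.

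miR-340-3p, the arm of mir-340 with fewer counts, ranged from 112 CPM in TG mouse 5 to 275 CPM in TG mouse 8 at 3 months, with a median of 139.6 CPM and a mean of 157 ± 49.8 CPM (SD, n = 9). At 6 months it ranged from 237 to 346 CPM with a median of 296 CPM and a mean of 288 ± 31.1 CPM (SD, n = 11). Of the 9 mice at 3 months, 8 were below the lowest mouse at 6 months, and only mouse 8 overlapped the older mice. The log2FC was 0.89 (standard error, SE, 0.15; quasi-likelihood adjusted p = 0.000561, edgeR), which is 1.86-fold, and all 11 older mice were above the mean of the younger ones. Without mouse 8 the log2FC was 1.04 (SE 0.13), given with no test because the library was picked by its values.

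miR-425-5p, the arm of mir-425 with more counts, ranged from 59.8 to 121 CPM at 3 months, with a median of 70.7 CPM and a mean of 78.8 ± 20.9 CPM (SD, n = 9). It ranged from 107 to 186 CPM at 6 months, with a median of 138 CPM and a mean of 139 ± 26.1 CPM (SD, n = 11). The same 8 of 9 younger mice lay below all 11 older mice, and TG mouse 8 was again the exception. The log2FC was 0.83 (SE 0.16, quasi-likelihood adjusted p = 0.0013, edgeR), which is 1.78-fold, and was 0.93 (SE 0.15) without mouse 8. Both log2FC stayed above 0 under every scaling tried, but neither passed the test when libraries were scaled by their spike-in oligos, where the median log2FC of all miRNAs was -0.73 (0.28 and 0.14, adjusted p = 0.363 and 0.713 from edgeR). Scaled by the total miRNA count, with a median of -0.29, miR-425-5p was not called either (0.59, adjusted p = 0.0731 from edgeR).

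The partner arms were not called. miR-340-5p was at 856 ± 376 CPM (SD, n = 9) at 3 months, from 345 to 1354 CPM, and at 736 ± 254 CPM (SD, n = 11) at 6 months, from 288 to 1135 CPM. The ages overlapped, and the log2FC was -0.20 (SE 0.26, adjusted p = 0.606 from edgeR). miR-425-3p was at 14.6 ± 6.69 CPM (SD, n = 9) and at 12.8 ± 4.33 CPM (SD, n = 11), with a log2FC of -0.17 (SE 0.26, adjusted p = 0.676 from edgeR). Its values went from 6.40 to 23.4 CPM at 3 months and from 4.90 to 17.8 CPM at 6 months. For both arms the standard error exceeded the estimate, and the direction turned with the log2 library total as a covariate (0.25 and 0.42) and in the libraries of 10000000 to 26000000 counts (0.57 and 0.84), where miR-425-3p was called. The TG mice at 3 months in these libraries were mice 1, 2, 3 and 8, with miR-340-5p at 469, 370, 345 and 994 CPM. Their miR-425-3p was at 8.43, 7.77, 6.40 and 10.0 CPM.

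miR-191-5p, the neighbour of miR-425-5p, also overlapped between the ages. It ranged from 1308 to 3007 CPM with a median of 2484 CPM at 3 months and from 877 to 3382 CPM with a median of 1584 CPM at 6 months. The log2FC was -0.16 (SE 0.23, adjusted p = 0.644 from edgeR), and it was 0.27 with the log2 library total as a covariate and 0.51 in the libraries of 10000000 to 26000000 counts, not called in either. Among those libraries, the TG mice at 3 months were mice 1, 2, 3 and 8, at 1582, 1312, 1308 and 1724 CPM. miR-191-3p, the arm that is seldom kept, was at 7.85 ± 1.34 CPM (SD, n = 9) and 8.10 ± 1.97 CPM (SD, n = 11), with a log2FC of 0.07 (SE 0.17, adjusted p = 0.779 from edgeR).

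In wild-type control mice, none of the 6 members was called between 3 and 6 months. Over all miRNAs, edgeR called 1 of 660 (0.152%) there, 102 had an unadjusted p under 0.05, and DESeq2 called 15. miR-340-3p was at 259, 152, 138, 141 and 291 CPM in mice 1 to 5 at 3 months and from 187 to 338 CPM at 6 months, with a median of 288 CPM. Mice 2, 3 and 4 were below all 15 older mice, and mice 1 and 5 were among them. The log2FC was 0.51 (SE 0.18, p = 0.00968, adjusted p = 0.256 from edgeR), with 14 of 15 older mice above the mean of the younger ones.
miR-425-5p was at 129, 85.3, 62.8, 79.7 and 137 CPM in mice 1 to 5 and from 111 to 240 CPM at 6 months, with a median of 146 CPM. The same 3 mice were below all older mice, and the same 2 were not. The log2FC was 0.55 (SE 0.20, p = 0.00916, adjusted p = 0.256 from edgeR), and all 15 older mice were above the mean of the younger ones. Without mice 1 and 5 the log2FC was 0.95 (SE 0.19) for miR-340-3p and 0.93 (SE 0.23) for miR-425-5p, again with no test. DESeq2 with 1 factor of unwanted variation (RUVr) called both miRNAs higher, together with miR-191-5p as lower, with log2FC of 0.51, 0.54 and -0.46 (adjusted p = 0.00903, 0.00527 and 0.00205). The share of all miRNAs that this fit called is not given here, so its calls are not read as particular to the members.

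The other members had an adjusted p of 0.597 or more from edgeR in wild-type control mice. miR-191-5p was at 2061, 2255, 2541, 2563 and 2744 CPM in mice 1 to 5 at 3 months and from 670.04 to 2948 CPM at 6 months, with a log2FC of -0.31 (SE 0.28). The young mice lay within the range of the older ones. miR-340-5p was at 716, 1494, 811, 901 and 706 CPM in mice 1 to 5, and had a log2FC of -0.27 (SE 0.26), or -0.49 (SE 0.32) without mice 1 and 5. The log2FC was -0.09 (SE 0.28) for miR-425-3p and 0.11 (SE 0.17) for miR-191-3p.

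**Figure D2:**
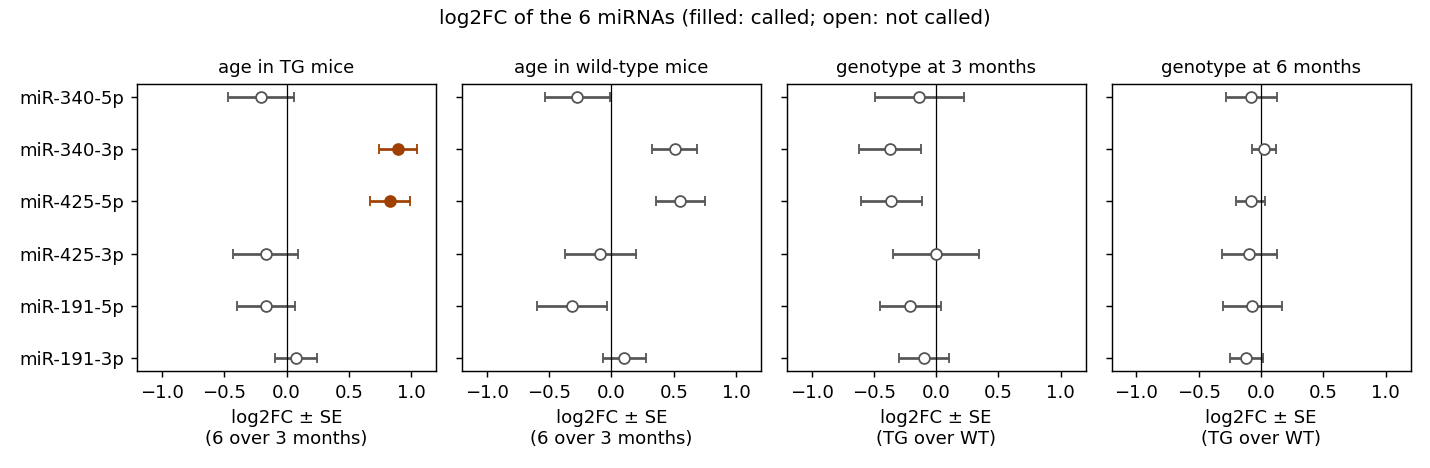
log2FC of the 6 miRNAs (x axis, bars are the standard error) in each comparison of ages or genotypes, fitted with edgeR. Filled points were called. miR-340-3p and miR-425-5p are the 2 filled points, in TG mice, and have the largest log2FC of the 6 in wild-type control mice too, at 0.51 and 0.55.

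Whether age acted differently in the genotypes was tested by the interaction, and none of 699 miRNAs was called in it (0%, with 14 at an unadjusted p under 0.05). The interaction was 0.36 (SE 0.22, adjusted p = 0.986 from edgeR) for miR-340-3p and 0.25 (SE 0.24, adjusted p = 0.986) for miR-425-5p. The call in TG and not in wild-type control mice was therefore not shown to be a difference between the genotypes, and the interaction has a standard error too wide to show that they act alike.

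The genotypes were compared directly at each age. None of the 6 members was called at 3 months, where 0 of 695 miRNAs were (0%, with 7 at an unadjusted p under 0.05), or at 6 months, where 0 of 612 were (0%, with 3). DESeq2 called none at either age. At 3 months the log2FC of TG over wild-type control mice was -0.37 (SE 0.25) for miR-340-3p and -0.36 (SE 0.24) for miR-425-5p, and the group ranges overlapped. The libraries of 10000000 to 26000000 counts left 4 mice of each genotype, with all 3 libraries that stood apart among them, and there 128 of 608 miRNAs were called, among them miR-425-3p and miR-191-5p as lower in TG mice (each -0.82, adjusted p = 0.0398 and 0.0247 from edgeR). The TG mice left were mice 1, 2, 3 and 8. Their miR-191-5p was at 1308 to 1724 CPM, against a median of 2484 CPM over all 9 TG mice of that age. Without the 3 libraries that stood apart the values of miR-340-3p and miR-425-5p were -0.08 (SE 0.20) and -0.10 (SE 0.24). At 6 months the log2FC was 0.02 (SE 0.10) for miR-340-3p and -0.08 (SE 0.12) for miR-425-5p. The adjusted p was 0.998 at 3 months and 0.992 at 6 months for each of the 6 members.

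Because 1 arm of mir-340 and of mir-425 was called and the other was not, the ratio of 5p to 3p counts within each library was compared across all hairpins with both arms measured. This ratio cancels the scaling of a library. For mir-340, 5p counts exceeded 3p counts 5.83 ± 2.88 times (SD, n = 9) in TG mice at 3 months and 2.56 ± 0.86 times (SD, n = 11) at 6 months. For mir-425 the ratio was 6.51 ± 3.30 (SD, n = 9) and 12.4 ± 5.80 (SD, n = 11). The balance thus went towards the 3p arm in mir-340 and towards the 5p arm in mir-425.
On the log2 scale the difference in TG mice was -1.07 (SE 0.31, adjusted p = 0.0206 from limma) for mir-340 and 0.96 (SE 0.28, adjusted p = 0.0227) for mir-425. Both were called, as were 28 of 177 hairpins (15.8%). For mir-191 the ratio was 273 ± 75.7 (SD, n = 9) and 230.06 ± 66.3 (SD, n = 11), and the difference of -0.26 (SE 0.22, adjusted p = 0.435 from limma) was not called.

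In wild-type control mice the ratio of mir-340 was 5.45 ± 3.02 (SD, n = 5) at 3 months and 2.77 ± 0.92 (SD, n = 15) at 6 months, and that of mir-425 was 6.98 ± 2.75 (SD, n = 5) and 13.2 ± 8.24 (SD, n = 15). The log2 differences of -0.88 and 0.81 had an adjusted p of 0.227 and 0.228 from limma, and none of 171 hairpins was called (0%). Without the libraries that stood apart, and with no test, the differences were -1.47 (SE 0.36) for mir-340 and 1.16 (SE 0.39) for mir-425 in wild-type control mice, and -1.14 (SE 0.32) and 1.09 (SE 0.28) in TG mice. Between the genotypes, 0 of 187 hairpins were called at 3 months (0%) and 0 of 162 at 6 months (0%).

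The arm balance also followed library depth, which differed between the ages. Across the 40 libraries, after each was set relative to its group mean, the log2 ratio of mir-340 had a Pearson r of 0.79 with the log2 library total (Spearman 0.69), that of mir-425 an r of -0.77 (Spearman -0.71) and that of mir-191 an r of 0.71 (Spearman 0.60). Both quantities come from the same library, and r was 0.73, -0.79 and 0.64 without the 2 libraries farthest from the median total. The relation was present within the 9 TG mice at 3 months (0.89, -0.92 and 0.94) and within the 11 TG mice at 6 months (0.80, -0.88 and 0.55). Among the TG mice at 3 months, mice 1, 2, 3 and 8 had mir-340 ratios of 1.90 to 3.61 at 13200774 to 25145705 counts. Mice 4, 5, 6, 7 and 9 had ratios of 7.38 to 9.19 at 29499287 to 36547011 counts. By mir-340 ratio the libraries of this group thus form a lower and a higher set, and the higher set also has the higher totals. The totals alone do not divide there as clearly, since within the lower set they step from 17146603 counts in mouse 2 to 25145705 in mouse 1. With the log2 library total as a covariate, the age difference in TG mice was -0.50 for mir-340 and 0.38 for mir-425, and neither was called (adjusted p = 0.234 and 0.261 from limma). Over the 29 libraries of 10000000 to 26000000 counts, it was -0.06 and 0.04 (adjusted p = 0.884 and 0.909 from limma). These held 9 TG mice at 6 months but 4 at 3 months, namely mice 1, 2, 3 and 8 (13200774 to 25145705 counts). None of the TG mice at 3 months with mir-340 ratios of 7.38 or more was among them. Neither hairpin was called in these fits, the latter of which has fewer mice and still spans a range of depths.

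The levels of single arms differed in how they followed depth. The r with the log2 library total was 0.71 for miR-340-5p, 0.75 for miR-425-3p and 0.72 for miR-191-5p, against -0.29 for miR-340-3p and -0.02 for miR-425-5p. Within the 9 TG mice at 3 months the r of miR-340-3p was -0.70, with the library of mouse 8 among them, against 0.63 for miR-340-5p and -0.17 for miR-425-5p. Within the 11 TG mice at 6 months it was 0.10 for miR-340-3p and -0.02 for miR-425-5p. Without the 3 libraries that stood apart, the r over 37 libraries was -0.11 for miR-340-3p and 0.20 for miR-425-5p. The part of depth in the age difference of these 2 miRNAs was not tested beyond the following fits. With the log2 library total as a covariate, miR-340-3p had a log2FC of 0.80 (adjusted p = 0.00344 from edgeR) and miR-425-5p one of 0.80 (adjusted p = 0.00574) in TG mice, and both were called. In the libraries of 10000000 to 26000000 counts their log2FC was 0.68 and 0.83 (adjusted p = 0.0233 and 0.0171), and miR-425-3p was called higher as well (0.84, adjusted p = 0.0164). The log2 spike-in share had r of -0.77 with miR-340-5p, -0.62 with miR-425-3p and -0.60 with miR-191-5p. Levels also differed at similar depth. In wild-type control mice at 6 months with 13182085 to 16354572 counts, miR-191-5p was at 1035 to 1418 CPM in mice 1, 2 and 3. It was at 2498 to 2948 CPM in mice 11, 13 and 14. What these differences follow was not tested.

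**Figure D3:**
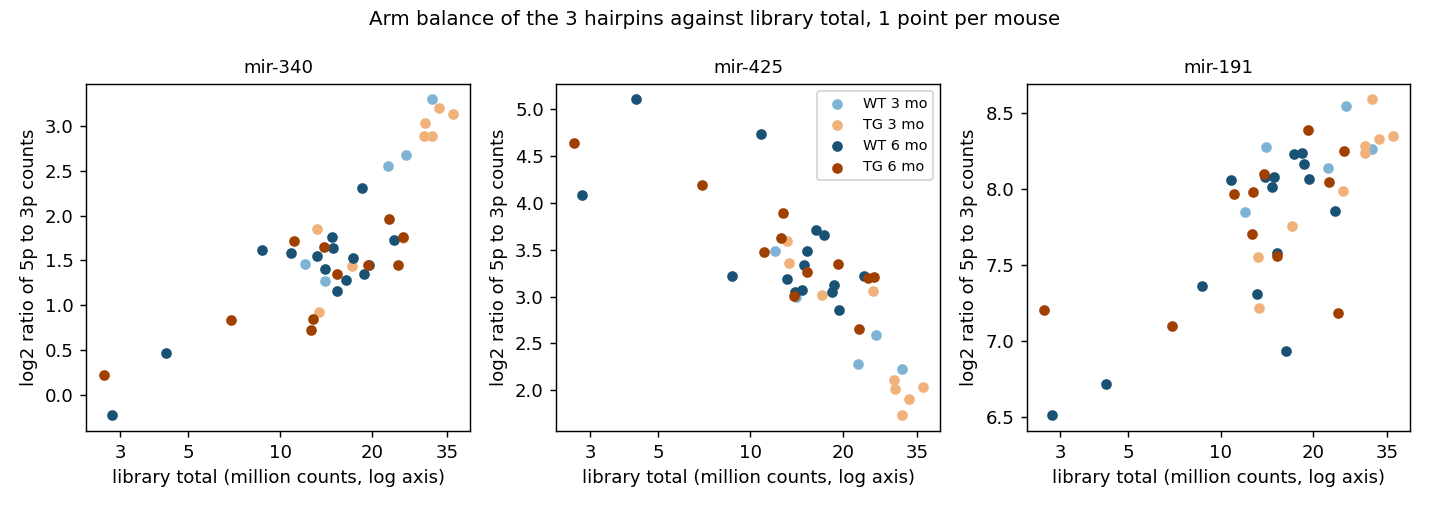
The log2 ratio of 5p to 3p counts of each hairpin (y axis) against the library total (x axis, counts on a log axis), 1 point per mouse, coloured by genotype and age. The ratio goes up with depth for mir-340 and mir-191 and down for mir-425, with r of 0.79, 0.71 and -0.77 after group means are removed, and the deepest libraries are those of mice at 3 months.

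The arms of mir-340 showed little correlation from mouse to mouse. The deviations from group means of miR-340-5p and miR-340-3p had a Pearson r of 0.05 over the 40 libraries (Spearman 0.07), the rank of 177 among the 360 partners compared with miR-340-5p. The hairpin neighbours miR-191-5p and miR-425-5p had an r of 0.35 (Spearman 0.37, rank 149 of 360). miR-191-5p had a higher r with other arms, at 0.84 (Spearman 0.86, rank 55 of 360) for miR-425-3p and 0.77 (Spearman 0.69, rank 66 of 360) for miR-340-5p. Many miRNAs outside the 3 hairpins thus ranked above these pairs. miR-340-3p and miR-425-5p, from hairpins on different chromosomes, had an r of 0.71 (Spearman 0.65), which ranked 6 of 360. This r was 0.68 within TG mice at 3 months, 0.72 within wild-type control mice at 6 months and 0.32 within TG mice at 6 months, and 0.51 over the 37 libraries left without the 3 that stood apart. Without the 2 libraries farthest from the median of one miRNA of each pair, the values over all libraries became 0.05, 0.35, 0.81, 0.70 and 0.62 in the order given. Between the 2 arms of mir-191 the r over the 40 libraries was 0.61 (rank 114 of 360), and between those of mir-425 it was 0.30 (rank 96 of 360). The correlations are across libraries that differ in depth and are given as descriptions.

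The first principal component of the deviations held 52.4% of the variance within groups, over 699 miRNAs, and its absolute r with the log2 library total was 0.77. Its absolute r was 0.92 with miR-191-5p, 0.90 with miR-340-5p and 0.90 with miR-425-3p, and 0.50 with miR-191-3p. It was 0.28 with miR-425-5p and 0.08 with miR-340-3p. The miRNAs most like miR-191-5p across the 40 libraries, out of 356 that averaged 10 CPM or more, were miR-107-3p, miR-664-3p and miR-30c-5p (each r = 0.94). Those most like miR-340-5p were miR-384-3p (r = 0.93), miR-30e-5p (r = 0.93) and miR-369-3p (r = 0.92), and those most like miR-425-5p were miR-132-5p (r = 0.88), miR-1983 (r = 0.84) and miR-369-5p (r = 0.77).

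The proportion of the 2 neighbours in the cluster was lower at 6 months on average. The ratio of miR-191-5p to miR-425-5p counts was 27.03 ± 9.70 (SD, n = 5) in wild-type control and 28.2 ± 10.1 (SD, n = 9) in TG mice at 3 months. It was 13.4 ± 4.73 (SD, n = 15) and 13.8 ± 5.57 (SD, n = 11) at 6 months. The lowest value at 3 months was 14.2, in TG mouse 8, and the highest at 6 months was 23.8, so that the ages overlapped. In TG mice the log2FC of miR-191-5p and miR-425-5p were -0.16 and 0.83. They were 0.27 and 0.80 with the log2 library total as a covariate, and 0.51 and 0.83 in the libraries of 10000000 to 26000000 counts. The latter kept TG mice 1, 2, 3 and 8 at 3 months. Their miR-191-5p was at 1308 to 1724 CPM, against a median of 2484 CPM over all 9. The part of depth in the lower ratio was not tested.

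**Figure D4:**
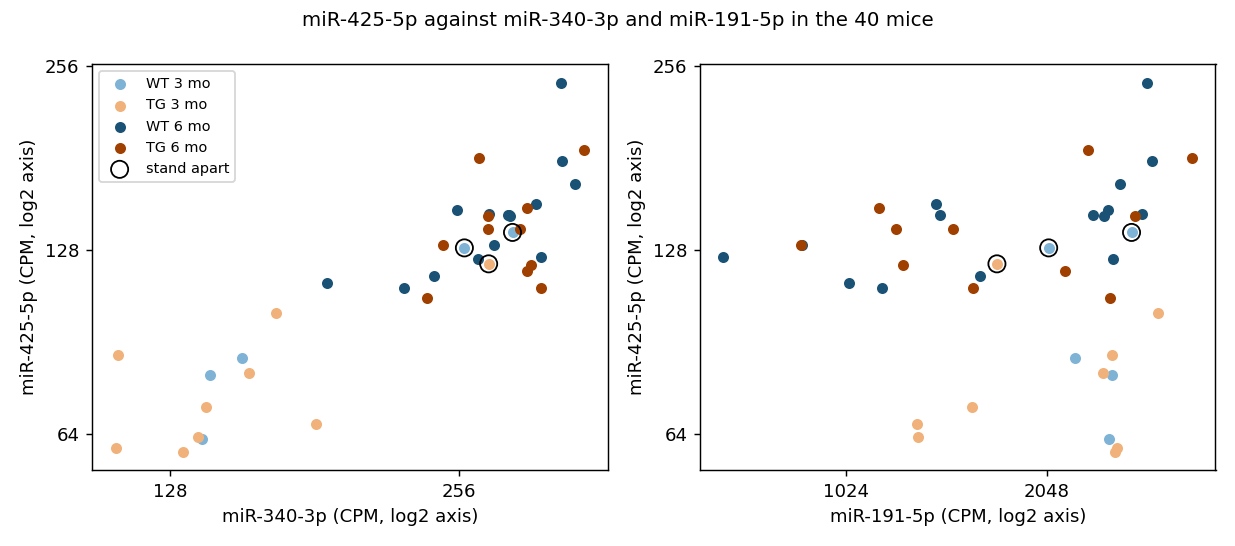
Level of miR-425-5p (y axis, CPM on a log2 axis) against miR-340-3p (left) and miR-191-5p (right, both x axes in CPM on a log2 axis) in the 40 mice, coloured by genotype and age. Rings mark the 3 libraries at 3 months that stood apart. On the left they lie with the 26 mice at 6 months, at 259 to 291 CPM of miR-340-3p and 121 to 137 CPM of miR-425-5p, whereas on the right the 3-month mice reach as high in miR-191-5p as most older ones.

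miR-191-5p and miR-425-5p were also set among 14 miRNAs commonly used as references in small RNA assays. In TG mice, miR-425-5p was the 1 of the 14 that was called with age (log2FC 0.83), and none was called lower. The median log2FC of the 14 was -0.17, against -0.09 for all 629 miRNAs, and their median absolute log2FC was 0.28 against 0.37. The other members of the list ranged from -0.53 (SE 0.36) for miR-16-5p to 0.36 (SE 0.14, adjusted p = 0.0897 from edgeR) for miR-423-3p. With group as the only term, edgeR over all libraries called none of the 14 in wild-type control mice or between the genotypes. Of the 14, only the members miR-191-5p and miR-425-5p were looked up in the alternative fits, and calls of the other references there are not known. DESeq2 with RUVr factors called miR-425-5p and miR-191-5p in wild-type control mice, and edgeR with the replicate block called miR-191-5p there. Between the genotypes at 3 months, miR-191-5p was called in the libraries of 10000000 to 26000000 counts.
The spread between mice of a group was a different quantity. The within-group SD of miR-191-5p was 0.60 on the log2 scale, the rank of 239 from the lowest among 361 miRNAs that averaged 10 CPM or more, whose median was 0.46. That of miR-425-5p was 0.32 (rank 74), and that of miR-423-3p, the lowest of the list, was 0.27 (rank 30). miR-191-5p was thus not called with age but varied more between mice of a group than the median miRNA, and miR-425-5p varied less but was called. The spread of miR-340-3p was 0.30 (rank 56), that of miR-340-5p 0.62 (rank 246) and that of miR-425-3p 0.65 (rank 263).

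**Figure D5:**
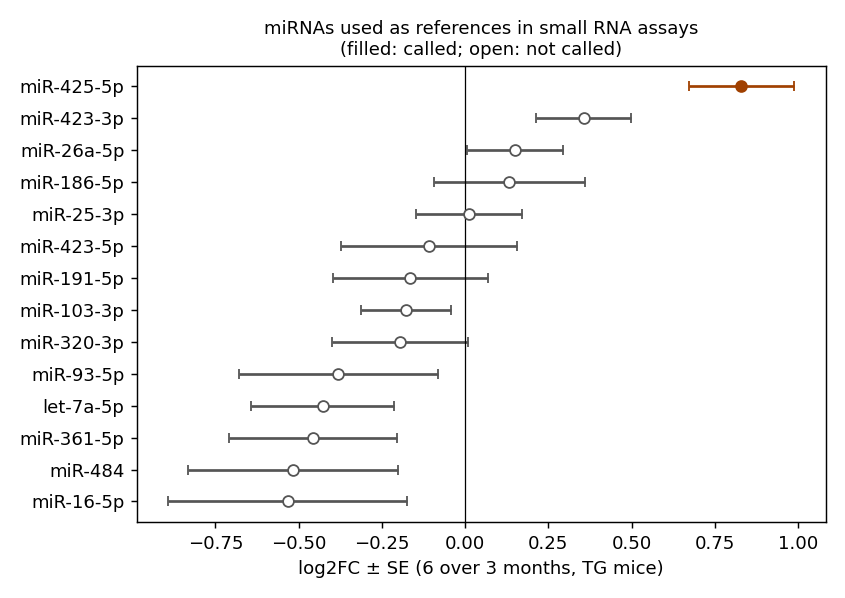
log2FC between 3 and 6 months in TG mice (x axis, bars are the standard error, edgeR) for 14 miRNAs used as references in small RNA assays (y axis). The filled point, miR-425-5p at 0.83, was called. The others, miR-191-5p at -0.16 among them, were not.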

How the data were processed

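Small RNA libraries of CA1 tissue from 40 mice were made with a NEBNext kit, which does not tell copies of a molecule apart. Per the labels, reads were processed with bcl2fastq 2.20.2, FastQC 0.11.5 and cutadapt 2.8. The authors aligned them with mirdeep2 and miRBase and deposited a raw count for each mature miRNA and precursor. The authors also deposited RPM values, which equalled the counts scaled by the library total within 0.005 and which were used as an alternative. The totals hold 52 entries of spike-in oligos, which were left out of the tests.

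Each miRNA was represented by its precursor with the highest total. Counts were tested with edgeR (4.0.16, R 4.3.3) after filterByExpr (minimum count 10, minimum total 15) and TMM, by the quasi-likelihood test with Benjamini-Hochberg adjustment over all miRNAs tested. The log2FC is 6 over 3 months, or TG over wild-type control. Levels are TMM-normalized CPM over the 40 libraries. The log2 ratio of 5p to 3p counts (prior count 0.5, hairpins with a mean of at least 10 counts in each arm) was tested with limma (3.58.1). Deviations for correlations used log2 CPM with a prior count of 2. DESeq2 (1.42.0), RUVr factors computed from their definition, other scalings and filters, limma on log2(RPM + 1) and fewer mice were alternatives. The scripts were tested on simulated data. No library was a copy of another. The floor covers counting error only, and the standard errors and p-values include the spread between mice.

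The 6 members were named in every comparison, with the 3 miRNAs most like each of miR-340-5p, miR-191-5p and miR-425-5p, the reference miRNAs and the cell markers. Members and lists were chosen with earlier results of these data known. Alternatives on library depth and spike-in scaling were added after seeing the data, and so were the 3 libraries described as standing apart. Positions are from GENCODE M21 and RefSeq.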

Additional observations from a re-analysis of the deposited data

How the results depend on the processing

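Libraries differ in depth with age, so age and depth are partly confounded, and the precision of the lowest arms, miR-425-3p and miR-191-3p, is limited by their counts. In TG mice 2 members were called between the ages in every alternative except 3: the libraries of 10000000 to 26000000 counts gave 3, scaling by total miRNA count gave 1 and scaling by spike-in oligos gave 0. The calls over all miRNAs were 47 higher of 99 as reported, and 32 of 108 and 3 of 266 with these 2 scalings. In wild-type control mice 0 were called, except for 3 and 4 with DESeq2 and 1 or 2 RUVr factors and 2 with the replicate block. Between the genotypes 0 were called, except for 2 at 3 months in the libraries of 10000000 to 26000000 counts. The interaction gave 0 throughout. For arm balance in TG mice, 2 of the 3 hairpins were called, but 0 with the log2 library total as a covariate and 0 in the libraries of 10000000 to 26000000 counts. The cause of these changes was not tested. For some alternatives the share of all miRNAs or hairpins called is not given here. Their counts of members or hairpins are not read as a result about them.

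Directions reversed as follows. With the log2 library total as a covariate, the log2FC with age was 0.25 for miR-340-5p, 0.42 for miR-425-3p and 0.27 for miR-191-5p in TG mice, 0.10 for miR-340-5p and 0.19 for miR-425-3p in wild-type control mice, and the arm balance of mir-191 in TG mice differed by 0.058. In the libraries of 10000000 to 26000000 counts the same values were 0.57, 0.84, 0.51, 0.12, 0.14 and 0.28. For TG and wild-type control animals respectively, miR-191-3p was at -0.074 and -0.046 with limma on RPM, at -0.15 and -0.033 with scaling by total miRNA count, and at -0.57 and -0.10 with spike-in scaling. With spike-in scaling, miR-340-3p and miR-425-5p were at 0.0020 and 0.061 between the genotypes at 3 months and at -0.10 and -0.28 in the interaction. Between the genotypes at 6 months, miR-340-3p was at -0.0084 with RLE size factors, -0.0065 with DESeq2, -0.0045 and -0.0041 with 1 and 2 RUVr factors, -0.067 with limma on RPM, -0.10 with scaling by total miRNA count and -0.10 with spike-in scaling. Leaving out each 3-month-old wild-type control mouse in turn moved miR-425-3p between -0.17 and 0.011 with age and left the count of members called at 0.

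The groups share replicate numbers but no mice, and same-numbered mice did not deviate together in every pair: r averaged 0.23 over 9 pairs (-0.52 to 0.70) between the ages in TG mice, where 7 pairs were over 0.1 and 2 mice were closest to their own number, 0.04 over 5 pairs in wild-type control mice (2 over 0.1, 0 closest), 0.26 over 11 pairs between the genotypes at 6 months (9 over 0.1, 3 closest) and 0.0068 over 5 pairs at 3 months (2 over 0.1, 1 closest). With the replicate block, 2 members were called in TG mice (124 miRNAs in all). In wild-type control mice 250 miRNAs were called, among them 2 members (miR-340-5p at -0.98 and miR-191-5p at -1.29), miR-191-3p was at -0.10, and 3 hairpins were called in arm balance. A replicate number held by 1 group only takes no part in the difference, so mice 1 to 5 of each age were compared there. Those older mice had miR-191-5p at 670 to 1418 CPM, against a median of 2401 CPM over all 15. Their miR-340-5p was at 266 to 659 CPM, against a median of 739 CPM. Between the genotypes at 6 months miR-425-5p was at 0.0024 with the block.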
